A study of Homo sapiens with 6 samples.

Results

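The keratins of the ductal epithelium were followed in Capan-1, a line of human pancreatic carcinoma cells, after knockdown of GNE, the bifunctional enzyme that starts sialic acid synthesis. The genes were KRT7, KRT8, KRT10, KRT15, KRT17, KRT18, KRT19, KRT20, KRT23 and KRT80, and their values are those of every probe set that the platform annotation assigns to 1 of these genes alone. Of the 10 genes, 9 had such probe sets, 15 in all among 54675 on the array, and KRT17 was not analysed here. Probe sets with a mean above 4 over all arrays, on the log2 scale, were tested. This limit left 11 of the 15, at least 1 for each of the 9 genes.

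There were 3 arrays of siGNE cells, transfected with small interfering RNA (siRNA) against GNE, and 3 arrays of control cells, labelled allStar-transfected. Both groups received 2 transfections with an interval of 48 h, and the harvest followed 72 h after the last of them. The knockdown is transient and in a single cell line, and the labels do not state that replicates are separate cultures. The p-values therefore cover the spread between these samples only, and that spread may be technical. Titles carry the numbers 1 to 3 in each group, and 2 arrays that share a number form a pair.

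Keratins are the intermediate filament proteins of epithelia. Each filament is built from dimers of an acidic type I and a basic type II keratin, so the proteins are needed in partnered amounts. Simple ductal epithelium is known for the type II keratins KRT7 and KRT8 with the type I keratins KRT18 and KRT19, and KRT7 and KRT19 are used by pathologists as markers of pancreatic duct cells. KRT20 is typical of intestinal epithelium, KRT10 of suprabasal epidermis and KRT15 of basal layers. In the gene table used for names, KRT7, KRT8 and KRT80 lie on chromosome 12. The type I genes lie on chromosome 17, except KRT18, which lies next to KRT8 on chromosome 12.

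GNE itself was lower in every pair. Its log2 values were 8.39, 9.86 and 9.57 in siGNE cells 1 to 3, against 11.12, 11.47 and 10.86 in control cells 1 to 3. The groups did not overlap, and siGNE cells held 15.0%, 32.8% and 40.9% of the control level in pairs 1, 2 and 3. The limma adjusted p of this difference was 0.131 without and 0.0348 with the replicate block, a term for the array number. Over all 6 arrays, the deposited values had array medians between 2.96 and 3.02, and values near 3 are close to background.

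The ductal epithelial identity of the cells was checked with markers other than keratins. The adhesion proteins EPCAM and CDH1 averaged 14.90 and 13.30 in siGNE cells, against 14.81 and 13.20 in control cells. Of 11 ductal epithelial markers on the array, 10 were above the limit for testing. All 3 acinar, all 5 islet and all 5 endothelial markers lay below it, including the hormone genes of the islet.

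The main keratins of this epithelium stayed strongly expressed after GNE silencing, and of their tested probe sets only that of KRT23 passed the test, with the replicate block. In these bulk samples, fewer expressing cells and less RNA per cell cannot be told apart. KRT23 fell to 57.0% of its control level, a log2 difference of -0.81 (SE 0.08), when limma took the replicate block into account (adjusted p 0.0242). KRT15, KRT18, KRT8 and KRT19 were higher by 0.34, 0.20, 0.27 and 0.13 and did not pass in either fit. KRT7, KRT20 and KRT80 differed by -0.011, -0.07 and -0.17 and did not pass either. Over the 11 tested probe sets the median difference was 0.13, beside -0.0091 over all 22085 tested probe sets, and the median size of a difference was 0.17, beside 0.19 over all.

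The tests were limma fits over all tested probe sets, with Benjamini-Hochberg adjustment and a call at an adjusted p under 0.05. Without the replicate block, 0 of the 11 keratin probe sets were called, where 0.0408% of all tested probe sets were, and 1 of 11 had an unadjusted p under 0.05, beside 14.6% of all. With the block, 1 of 11 keratin probe sets (9.09%) was called, beside 9.49% of all tested probe sets in either direction and 5.35% falling, and 3 of 11 had an unadjusted p under 0.05, beside 31.6% of all. The share of keratin calls is therefore near that of all genes. The block changed the call for KRT23 alone among the keratins.

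**Figure D1:**
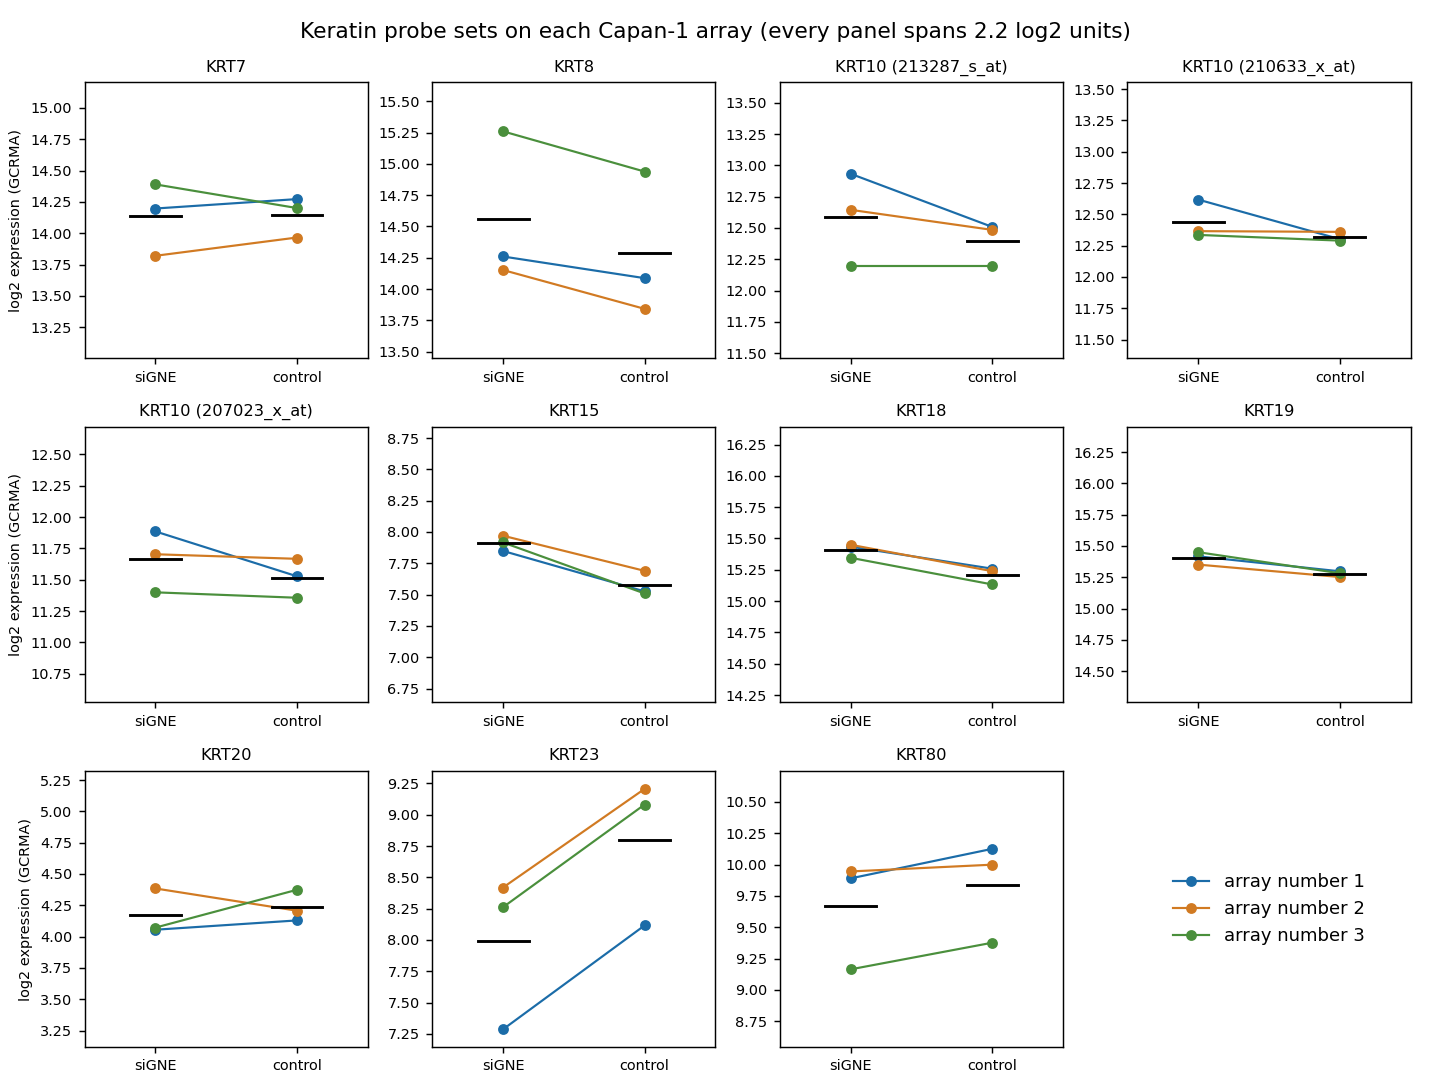
Log2 expression (y axis) of the 11 tested keratin probe sets on each array, with siGNE arrays on the left of each panel and control arrays on the right. Lines join arrays of the same number, black bars are group means, and every panel spans the same 2.2 log2 units. The 3 lines of KRT23 run parallel, at -0.83, -0.79 and -0.82, although the pairs lie at different levels.

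The type II keratin KRT7, a defining marker of duct cells, had log2 values of 14.20, 13.82 and 14.39 in siGNE cells 1 to 3, against 14.27, 13.97 and 14.20 in control cells 1 to 3. The groups overlapped, and the 3 pairs did not share a direction, at -0.08, -0.15 and 0.19. With the replicate block the 95% interval of the difference ran from -0.28 to 0.26, and the limma adjusted p was 0.956. The other 3 KRT7 probe sets lay between 1.67 and 3.23 on all arrays, below the limit for testing.

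KRT8, the type II partner of KRT18, read 14.26, 14.15 and 15.26 in siGNE cells 1 to 3, against 14.09, 13.84 and 14.94 in control cells 1 to 3. Each siGNE array was above the control array of its number, by 0.17, 0.31 and 0.32. The groups overlapped nonetheless, because both arrays of number 3 were higher than the rest, by 1.01 on average. The KRT8 difference of 0.27 had a limma adjusted p of 0.846 without the block (SE 0.40) and 0.114 with it (SE 0.09, 95% interval 0.04 to 0.49). Leaving out siGNE array 3, which breaks its pair, turned the difference without the block to -0.08.

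KRT18, which polymerises with KRT8 and is cleaved by caspases in dying epithelial cells, read 15.43, 15.45 and 15.35 in siGNE cells, against 15.26, 15.24 and 15.13 in control cells. All siGNE values lay above all control values, with pair differences of 0.18, 0.21 and 0.21. The difference of 0.20 had a limma adjusted p of 0.175 with the block (SE 0.08, 95% interval -0.012 to 0.41). Within arrays, the log2 ratio of KRT18 to KRT8 differed by -0.07 between siGNE and control cells. It differed by 0.0029, -0.10 and -0.11 in pairs 1 to 3. Both partners were higher in each pair, with the larger difference in KRT8 except in pair 1, and neither passed in either fit. Over all arrays, Pearson's r between KRT8 and KRT18 was -0.18. This r includes the shift of number 3 against numbers 1 and 2, which was 1.01 for KRT8 and -0.11 for KRT18.

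KRT19, the smallest keratin and one that lacks the tail domain, read 15.42, 15.35 and 15.45 in siGNE cells, against 15.30, 15.25 and 15.28 in control cells. The groups did not overlap, but the gap between them was small. The difference of 0.13 had a limma adjusted p of 0.344 with the block (95% interval -0.08 to 0.34). A second KRT19 probe set stayed between 2.66 and 2.72, at background, on all 6 arrays. The ratio of KRT19 to KRT7 differed by 0.14, and by 0.19, 0.25 and -0.021 in the pairs. The values of KRT18 and KRT19 stood close to the top of the scale, where the highest value on an array was 16.2 to 16.3, and a signal near the top can understate a difference.

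KRT15, a type I keratin of basal and progenitor layers and the neighbour of KRT19 in the type I cluster, read 7.85, 7.97 and 7.92 in siGNE cells, against 7.53, 7.69 and 7.51 in control cells. All siGNE values were above all control values, by 0.32, 0.28 and 0.41 within the pairs. The difference of 0.34, or 1.26-fold, gave the smallest unadjusted p of the keratins without the block (0.0253), with a limma adjusted p of 0.266. With the block the limma adjusted p was 0.0723 (SE 0.08, 95% interval 0.12 to 0.56). In all, 3 of the 11 keratin probe sets, those of KRT15, KRT18 and KRT19, had siGNE values entirely above the control values and 0 entirely below. Over all tested probe sets, 8.39% lay entirely above and 12% entirely below, together 20.4%. In all 3 pairs, 6 of the 11 keratin probe sets were higher and 2 were lower, beside 26.5% and 29.1% of all tested probe sets.

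KRT23 is a type I keratin known to be induced by histone deacetylase inhibitors in pancreatic cancer cell lines. It read 7.29, 8.42 and 8.26 in siGNE cells 1 to 3, against 8.12, 9.21 and 9.08 in control cells 1 to 3. The groups overlapped because both arrays of number 1 were lower than the rest. Within pairs the siGNE level was 56.3%, 57.9% and 56.7% of the control level. Without the block the same difference had an SE of 0.41 and a limma adjusted p of 0.433, and with it the 95% interval was -1.02 to -0.60. In fits without the block, leaving out siGNE array 1 gave -0.46 and leaving out control array 1 gave -1.15. With the block, leaving out a whole pair gave -0.82 to -0.80 and no call, in fits that made no call on any probe set.

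**Figure D2:**
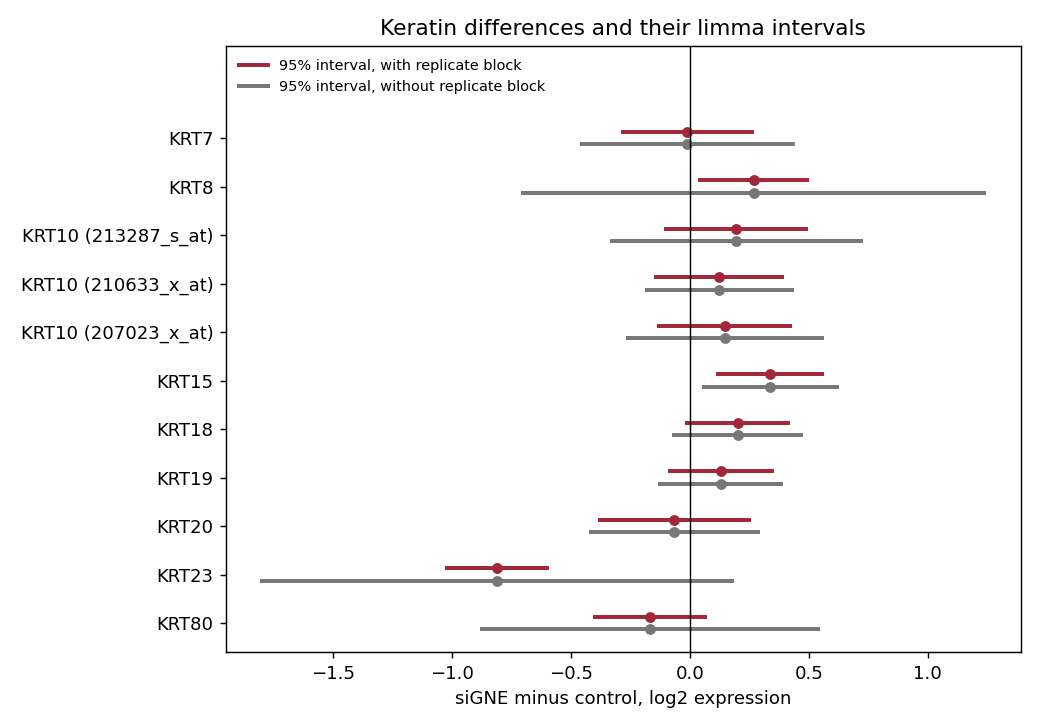
Difference of siGNE minus control (x axis, log2) for each tested keratin probe set, with its limma 95% interval with the replicate block in red and without it in grey. The KRT23 interval with the block runs from -1.02 to -0.60, and it is the only one whose adjusted p was under 0.05.

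KRT80, a type II keratin found near desmosomes and the neighbour of KRT7, read 9.89, 9.95 and 9.16 in siGNE cells, against 10.13, 9.999 and 9.38 in control cells. It was lower in all 3 pairs, by -0.24, -0.05 and -0.21, and the groups overlapped. The limma adjusted p was 0.269 with the block (95% interval -0.40 to 0.06). Both arrays of number 3 were lower than the rest by 0.72 on average, while those of KRT8 were higher. KRT20 read 4.05, 4.38 and 4.07 in siGNE cells, against 4.13, 4.21 and 4.37 in control cells. These levels are just above the limit for testing, and small changes can be lost there. Its pairs did not share a direction, and its limma adjusted p was 0.743 with the block.

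KRT10, the type I keratin of differentiating epidermis, was measured by 3 probe sets. The brightest read 12.93, 12.65 and 12.19 in siGNE cells, against 12.51, 12.48 and 12.19 in control cells. The 3 probe sets differed by 0.19, 0.12 and 0.15, all on the higher side. In each of them pair 1 was the highest, at 0.42, 0.32 and 0.36, while pair 3 lay between -0.000011 and 0.05. None passed, with limma adjusted p between 0.303 and 0.465 with the block.

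For 8 of the 11 keratin probe sets, the range of the 3 number means was greater than the difference between siGNE and control cells, beside 74.6% of all tested probe sets. It reached 1.11 for KRT23, 1.10 for KRT8 and 0.74 for KRT80. The arrays of number 3 also stood apart in an RNA measure. The actin control probe sets at the 3' end of the transcript exceeded those at the 5' end by 0.49 in siGNE cells 3 and by 0.53 in control cells 3. On the other arrays the actin gap was 1.48 and 1.25 in siGNE cells 1 and 2, against 1.08 and 1.45 in control cells 1 and 2. The part of this gap in the KRT8 and KRT80 values was not tested. A shift of number 3 against numbers 1 and 2 of at least 0.5 was seen in 2 of 11 keratin probe sets, beside 24.2% of all tested probe sets.

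Several keratins have near-identical relatives. The gene table lists 52 numbered pseudogenes of KRT8, 68 of KRT18 and 5 of KRT19, and the only probe sets of KRT8 and KRT18 are of a type marked as prone to cross-hybridisation, so their values are uncertain in that respect. Probe sets of related transcripts were looked up after the keratin values were seen. The KRT8 pseudogene KRT8P12 read 7.79, 7.29 and 8.03 in siGNE cells, against 7.06, 6.98 and 7.19 in control cells, with all siGNE values above all control values. Its difference of 0.63 had a limma adjusted p of 0.256 without the block and 0.0525 with it. A second KRT8P12 probe set lay below the limit for testing. So did the probe sets of the pseudogenes KRT17P5 and KRT19P2, which differed by -0.01 and 0.0008. KRT10-AS1, the antisense RNA named for KRT10, read 11.27, 11.08 and 10.43 in siGNE cells, against 10.53, 10.70 and 10.17 in control cells. It was higher by 0.46, with pair 1 again the highest at 0.73, and had a limma adjusted p of 0.0797 with the block.

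Of 29 keratin genes looked up besides the 10, 23 had a probe set of their own, and for all 23 the mean of the probe set used was below 4. KRT5 and KRT14, the pair of basal keratinocytes, averaged 1.85 and 2.58 in siGNE cells, against 1.85 and 2.58 in control cells. KRT4 and KRT13, the pair of mucosal stratified epithelium, were also at background. Of the squamous and basal marker list, 2 of 11 genes could be tested. S100A2, a calcium-binding protein of basal epithelium, fell by 0.99 (SE 0.12), and TRIM29, a protein abundant in basal epithelia, rose by 0.92 (SE 0.13), with limma adjusted p of 0.0272 and 0.0302 with the block. Neither passed without it (0.110 and 0.493).

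Keratin filaments are anchored at desmosomes by plakin proteins and plakophilins. Of 17 filament linkers, 14 were tested, and with the block 1 rose and 1 fell, beside 4.11% rising and 5.79% falling among all 10733 genes tested at 1 probe set each. The list median was 0.0048, and that of all genes -0.02. Without the block 0 of the 14 passed, beside 0.028% of all genes tested. An unadjusted p under 0.05 was seen for 2 of the 14, beside 1745 of all 10733 genes tested. PPL, the plakin periplakin, rose by 0.51 (SE 0.10, limma adjusted p 0.0481 with the block, 0.218 without). Its values were 9.59, 9.41 and 9.15 in siGNE cells, against 8.90, 8.95 and 8.77 in control cells, with no overlap. EVPL, the related plakin envoplakin that pairs with periplakin, was chosen for mention with its values known. It fell by 0.49 (SE 0.10, limma adjusted p 0.0492 with the block, 0.577 without), with pair values of -0.40, -0.66 and -0.41.

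The plakophilin PKP3 was lower by 0.34 and the cytolinker EPPK1 by 0.54, and the desmosomal cadherin DSC2 was higher by 0.36, with limma adjusted p of 0.0884, 0.121 and 0.159 with the block. The EPPK1 difference was -0.84, -0.74 and -0.04 in pairs 1, 2 and 3. Other tested EPPK1 probe sets differed by -0.65 and -0.002, those of DSC2 by 0.07 and 0.18, and none passed with the block. Desmoplakin (DSP), which binds the filaments to the desmosome, was higher by 0.14 and did not pass (limma adjusted p 0.372 with the block).

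Of 12 proteins that bind, modify, cleave or arrange keratins, all tested, 2 rose and 1 fell with the block, beside 4.11% and 5.79% of all genes tested, and the median was 0.09. Without the block 0 of the 12 passed in limma, and 3 had an unadjusted p under 0.05, beside 1745 of all 10733 genes tested. The autophagy receptor SQSTM1, which gathers with KRT8 and KRT18 in Mallory-Denk bodies, read 14.39 ± 0.14 in siGNE cells and 13.05 ± 0.13 in control cells (SD, n = 3 arrays each). It rose by 1.35 (SE 0.09, limma adjusted p 0.0179 with the block, 0.0600 without), and all siGNE values were above all control values. TGM2, the transglutaminase that crosslinks KRT8, fell by 0.76 (SE 0.09, limma adjusted p 0.0274 with the block, 0.0806 without), and TRIM29 was the other that rose. Other tested TGM2 probe sets differed by -0.59 and -0.51 (limma adjusted p 0.0358 and 0.0623 with the block). The kinase MAPK8, which phosphorylates KRT8, was higher by 0.39, and CASP6, a caspase that cleaves KRT18, was lower by 0.34. Neither passed (limma adjusted p 0.0783 and 0.0749 with the block). Other tested MAPK8 probe sets differed by -0.11 to 0.30 and another of CASP6 by -0.08, and none passed with the block.

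Among 7 tested filament proteins other than keratins, 0 passed in either limma fit, beside 9.89% of all genes tested with the block and 0.028% without. Without the block 1 of the 7 had an unadjusted p under 0.05, beside 1745 of all 10733 genes tested. The median was -0.33. Nestin (NES) differed by -0.92, with pair values of -1.76, -1.003 and 0.02, and the lamin LMNB2 by -0.51 (limma adjusted p 0.147 and 0.0574 with the block). SYNM and VIM differed by -0.33 and -0.18 at levels near the limit for testing. Vimentin read 4.24 in siGNE cells and 4.42 in control cells.

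None of the 10 tested transcription factors of the list of keratin gene regulators passed in either limma fit at the probe set used. Of all genes tested, 9.89% passed with the block and 0.028% without. Without the block 1 of the 10 had an unadjusted p under 0.05, beside 1745 of all 10733 genes tested. The median was -0.03. TFAP2A, a factor of ectodermal and epithelial genes, differed by -0.88 with pair values of -1.45, -0.44 and -0.75 (limma adjusted p 0.0643 with the block). A second TFAP2A probe set fell by 0.68 (limma adjusted p 0.0343 with the block, 0.442 without). KLF4 (0.31), PITX1 (0.23) and NFE2L2 (0.13) did not pass.

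**Figure D3:**
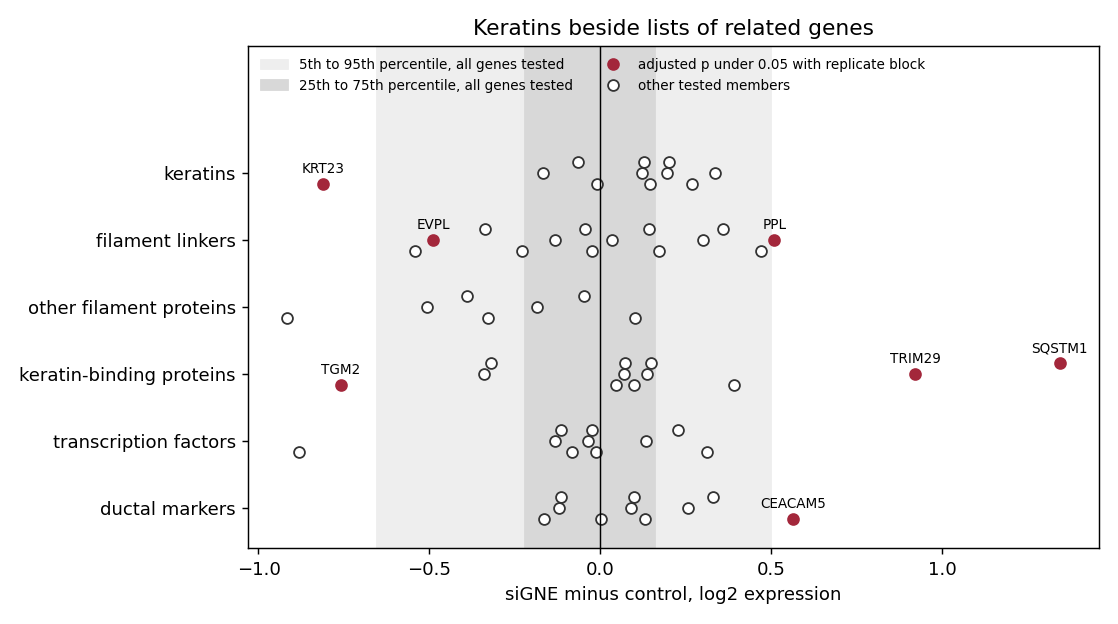
Difference of siGNE minus control (x axis, log2) of the 11 keratin probe sets and of the tested members of 5 lists at 1 probe set per gene, with filled points for an adjusted p under 0.05 with the replicate block. Grey bands hold the central differences of all 10733 genes tested. KRT23 at -0.81 lies below the 5th percentile of -0.65, and all other keratins lie between -0.17 and 0.34.

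Of the ductal epithelial markers, CEACAM5, a cell surface glycoprotein of gut and duct carcinomas, rose by 0.56 (SE 0.11, limma adjusted p 0.0491 with the block, 0.423 without). The tight junction proteins CLDN7 and CLDN4 were higher by 0.33 and 0.26, and the tetraspanin TSPAN8 by 0.13, and none passed in either limma fit. Of the intestinal list, 1 of 10 genes could be tested, the transcription factor CDX2, at -0.08 (limma adjusted p 0.697 with the block).

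Markers of other cells were mostly at background. Of 7 fibroblast markers only COL1A1 was tested. At the probe set used it rose by 0.71 (limma adjusted p 0.0441 with the block, 0.512 without). Other tested COL1A1 probe sets were higher by 0.52 and 0.22 (limma adjusted p 0.0384 and 0.290 with the block). The latter was lower in pair 1, by -0.07. The remaining COL1A1 probe sets, and DCN, LUM and COL3A1, were below the limit. Of 5 leukocyte markers only LYZ, a gene also expressed by glandular epithelium, was tested, at 0.03, and PTPRC was below the limit. The mean level of the 7 fibroblast markers ran from 3.52 to 3.70 in siGNE cells, against 3.42 to 3.62 in control cells, and that of the 5 leukocyte markers from 3.97 to 4.11 in siGNE cells, against 3.87 to 4.14 in control cells.

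Among 10722 tested genes other than keratins, the 3 whose values over the 6 arrays were most like those of KRT15 were HDAC9, SEL1L3 and CRYBG2, with Pearson's r of 0.99, 0.98 and 0.98. These correlations describe 6 arrays that form 3 pairs and were the highest of a large search. KRT15 was itself higher in siGNE cells, so genes chosen for likeness to it differ in the same direction by that choice. HDAC9, SEL1L3 and CRYBG2 differed by 0.43, 0.52 and 0.25, and with the block SEL1L3 passed (limma adjusted p 0.0389, and 0.172 without the block) while the other two did not (0.0626 and 0.124). Among the keratins themselves, KRT15 and KRT18 had an r of 0.88 over the 6 arrays, and KRT8 and KRT80 an r of -0.97. The r of KRT15 and KRT18 includes the group difference, since each had all siGNE values above all control values. Both correlations rest on 3 pairs, and KRT8 and KRT80 both differed most in the arrays of number 3, in opposite directions.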

How the data were processed

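The deposited table holds log2 expression values, normalized by the authors with GCRMA per the submitters' processing notes. GCRMA models background from probe sequence. No version is given in the sources used here. That the scale is log2 follows from the values. Labelled cRNA came from 300 ng of RNA, per the labels' protocols. Arrays have no read depth, and their number limits the precision.

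The annotation gives 1 gene to 41097 of the 54675 probe sets, several to 1801 and none to 11777. Symbols were updated by gene identifier (41043 matched) from RefSeq genes of GRCh38.p14, which also gave chromosomes and gene order.

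Differences of siGNE minus control were tested with limma 3.58.1 under R 4.3.3, over 22085 probe sets with a mean above 4, leaving out 62 control probe sets. The code was tested on simulated data. The design had no replicate block. The fit with the block stands beside it because deviations from the group means correlated at 0.58, 0.71 and 0.83 in same-number arrays, all over 0.1, and at -0.64 to 0.17 in others. SEs beside calls with the block are from that fit.

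Lists used 1 probe set per gene, the brightest, leaving out those marked for cross-hybridisation where another exists. Named genes are GNE, the keratins, for each list up to 4 tested members by unadjusted p, and the 3 genes most like the keratin with the smallest unadjusted p. DSP, EPCAM, CDH1, EVPL and genes given only as below the limit for testing were named outside this rule with their values known. The members and lists were chosen with earlier results of these data known. Alternatives were other filters, a floor at 4, quantile and median scaling, variance models, array weights, the block, an adjusted p under 0.1, probe set choices and leaving out arrays.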

Additional observations from a re-analysis of the deposited data

Results flagged for a closer look

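KRT16, a type I keratin that is induced in stressed epidermis and lies outside the keratins tested here, was below the limit for testing but higher after GNE silencing in all 3 pairs. Its only probe set read 4.15, 3.79 and 4.28 in siGNE cells 1 to 3, against 3.63, 3.58 and 3.52 in control cells 1 to 3, a difference of 0.50 with no overlap between groups. It drew notice as a signal above the control level in a probe set that no comparison used. Tested without a filter on low values, it had a limma adjusted p of 0.399 without the replicate block and 0.362 with it. Of the 30 untested keratin probe sets it was the only one with a difference above 0.2 in size, and 27 lay within 0.1 of control cells.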

How the results depend on the processing

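With 3 arrays a group, limma without the replicate block called 9 probe sets of all tested, 0 of keratins and 0 of the genes in the 5 lists of related genes, marker lists not counted (3223 had an unadjusted p under 0.05). All probe sets called numbered 3 with no filter, 35 with a mean above 6, 20 with quantile normalization, 49 with a trended variance, 44 with a trended and robust variance, 276 with array weights, and 219 at an adjusted p under 0.1. The listed genes called were 1 with a mean above 6, quantile normalization, or either trended variance, and 2 with array weights or at an adjusted p under 0.1. With the replicate block, 2095 probe sets, 1 keratin probe set and 5 listed genes were called. The 5 lists held 0, 14, 7, 12 and 10 tested genes, and 9.89% of all genes tested at 1 probe set each were called. These counts of calls were 2646, 1 and 5 under quantile normalization, and 2149, 1 and 5 with values under 4 set to 4. At an adjusted p under 0.1 they were 4823, 2 and 12. The KRT23 difference passed with the replicate block in all 3 of its full fits, at -0.81, -0.77 with quantile normalization and -0.81 with values under 4 set to 4, and GNE at -1.88, -1.86 and -1.88. At an adjusted p under 0.05 the block changed no other keratin call. At an adjusted p under 0.1, KRT15 also passed with the block (limma adjusted p 0.0723) but not without it (0.266). Leaving out 1 array, or 1 pair with the block, left 0 calls over all probe sets, with fewer arrays and fewer degrees of freedom. The keratin differences that changed sign did so only in these fits, and none of them passed in any fit: KRT7 ran from -0.138 to 0.147 with 1 array left out and stood at 0.0215 and 0.0569 with the block and without pair 1 or 2, KRT8 ran from -0.0831 to 0.593, KRT80 from -0.396 to 0.0839, and KRT20 from -0.173 to 0.00246 (0.0517 with the block and without pair 3). KRT15 ran from 0.30 to 0.39, KRT18 from 0.16 to 0.23, KRT19 from 0.11 to 0.16 and KRT23 from -1.15 to -0.46 over all settings, with no change of sign. The causes of these changes were not tested. Signals near background, as for KRT20, limit what can be seen.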
